A study of Mus musculus with 30 samples.

Results

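The expression of 3 genes, Mgmt, Got1l1 and Tmem159, was followed through blood cell development in mouse embryonic stem cells (ESC) with intact Sp1 or with Sp1 that lacks its DNA-binding domain. The genes were chosen by their symbols in the deposited table of 14685 genes, because their values fell to near 0 in samples of Sp1 mutant cells. The difference between Sp1 mutant and wild type cells is therefore what selected them, and it is described below as values, with no test.

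All cells came from the E14 ESC line and were wild type (WT), Sp1_deltaDBD or Sp3KO. Sp1_deltaDBD cells (Sp1ΔDBD/ΔDBD) make a truncated Sp1 protein without its DNA-binding domain, and Sp3KO cells (Sp3-/-) carry a disrupted Sp3 gene. A mutation was thus represented by E14 cells of 1 genotype here, and differences between lines that do not come from the mutation cannot be told apart from its effect. RNA was sequenced from 5 populations per genotype with 2 replicates each, giving 15 groups and 30 samples. These were undifferentiated ESC, Flk1+ mesodermal cells purified from embryoid bodies, and 3 populations sorted on day 2 of blast culture: HE1 (KIT+ CD41- Tie2+) and HE2 (KIT+ CD41+ Tie2+) haemogenic endothelium and blood progenitors (KIT+ CD41+ Tie2-).

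Sp1 and Sp3 are related zinc finger transcription factors that bind the same GC-rich motif, the GC box, which is common in the promoters of widely expressed genes. Mgmt encodes the DNA repair protein that removes alkyl groups from guanine by taking them onto itself, after which it is spent. The gene is known for being switched off together with methylation of its promoter in some tumours. Got1l1 encodes a relative of Got1, the cytosolic aspartate aminotransferase. Tmem159 encodes promethin, also called lipid droplet assembly factor, a membrane protein that works with seipin (Bscl2) where lipid droplets form.

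The genes lie at separate places. In the GENCODE M21 annotation of GRCm38, Mgmt spans chr7:136894614-137130266 on the plus strand, Tmem159 spans chr7:120102353-120120992 on the plus strand, and Got1l1 spans chr8:27197459-27223828 on the minus strand. RefSeq promoter windows of 300 bases (250 before and 50 after the start) were matched for 1 of the 3 genes, Mgmt, which has 2 of them. The first is shown because it holds the motif that Sp1 and Sp3 bind, with each GC box in capitals. It lies at chr7:136894336-136894635 of GRCm38.p6, on the plus strand:

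Mgmt promoter: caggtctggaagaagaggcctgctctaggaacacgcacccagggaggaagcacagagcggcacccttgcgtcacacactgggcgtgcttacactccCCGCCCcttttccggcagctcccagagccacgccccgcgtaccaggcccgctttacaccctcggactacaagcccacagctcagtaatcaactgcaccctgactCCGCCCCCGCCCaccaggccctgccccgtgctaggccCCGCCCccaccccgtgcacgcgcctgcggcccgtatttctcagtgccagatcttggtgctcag

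Both strands were searched for GGGCGG. This window holds 4 copies, each on the minus strand and so read as CCGCCC on the plus strand, with 2 of them side by side. Of the 32851 windows of the same length in the RefSeq table, 35.7% held at least 1 copy and 5.49% held at least 4. The window had a GC content of 66.3%, against a median of 52.7%, and 20 CG dinucleotides, against a median of 7, and 26.5% of windows had at least 20. It held 0 copies of CCAAT on either strand, a motif present in 37.4% of windows, so no GC box overlapped one. The second Mgmt window, at chr7:136912848-136913147, held 0 GC boxes and 3 CG dinucleotides. A match to these letters is a description of the sequence and not a binding site.

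The levels below are FPKM values (fragments scaled to transcript length and to the mapped fragments of the sample), quantile normalised by the authors, so genes can be compared per length. The depth behind each value is unknown. Genes with no signal do not stand at an exact 0 in every sample, because normalisation moved them to 1 shared lowest value. Between 398 and 1660 genes stood at the lowest value of their sample, which was at most 0.0234 FPKM. A gene at that value is called listed at the lowest value. No fold change is given where both samples of a group stand there.

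The genotypes and populations were first checked. Sp3 stood between 3.38 and 7.79 FPKM in the Sp3KO samples and between 25.9 and 58.1 in WT samples. Sp1 stood between 14.8 and 40.5 FPKM in Sp1_deltaDBD samples and between 24.9 and 52.4 in WT samples, and a level for the whole gene does not check the loss of 1 domain. Some marker genes separated the populations, with Kdr (Flk1) at 165 to 257 FPKM in Flk1+ cells and at no more than 0.322 in ESC. Gata1 measured 40.1 to 69.9 FPKM in progenitors and no more than 8.60 in the other populations. Spi1 measured 12.1 to 35.5 FPKM in progenitors and no more than 8.93 in the others. Runx1 did not set progenitors apart from HE2. It measured 12.7 and 67.5 FPKM in Sp1_deltaDBD progenitors and 9.94 and 40.1 in Sp1_deltaDBD HE2 cells. Kdr was not particular to Flk1+ cells, with 209 and 303 FPKM in WT HE1 cells. Itga2b (CD41) RNA did not set HE1, sorted as CD41-, fully apart. It measured 34.8 and 49.2 FPKM in WT HE1 cells and 85.9 and 136 in WT progenitors. In Sp3KO cells these values were 83.3 and 81.8, and 81.6 and 102. Of 10 fibroblast genes chosen to mark the feeder cells on which ESC are kept, 6 were in the table, and their summed level in ESC was 5.66 and 5.77 FPKM in WT, 12.7 and 15.7 in Sp1_deltaDBD and 4.31 and 10.4 in Sp3KO. It was unequal between replicates of HE1 cells, with 284 and 37.2 FPKM in WT, 127 and 13.9 in Sp1_deltaDBD and 28.8 and 20.0 in Sp3KO. In WT and Sp1_deltaDBD cells replicate 1 was also above replicate 2 in HE2 (49.2 and 9.05, and 45.9 and 4.45) and in progenitors (55.7 and 16.1, and 13.8 and 3.67). The fibroblast genes did not move together. In HE1 WT replicate 1 Col1a1 measured 95.0 and Postn 89.8 FPKM, while Twist2 measured 1.39 and Thy1 was listed at the lowest value. Thy1 in ESC ran against the sums, with 2.58 and 3.22 FPKM in WT and 2.11 and 1.89 in Sp1_deltaDBD. The sum is thus a level of these genes and does not by itself show fibroblasts. In samples of this kind, fewer cells that express a gene and less RNA per cell cannot be told apart.

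Mgmt was present in every WT and Sp3KO sample and was listed at the lowest value in Sp1_deltaDBD HE1 and HE2 cells. In WT cells it measured 12.7 and 8.23 FPKM in ESC, 11.4 and 14.4 in Flk1+ cells, 16.2 and 16.8 in HE1, and 16.5 and 13.7 in HE2. Progenitors held 10.2 and 11.8 FPKM. Mgmt was thus a gene of middle to upper level, standing above 58.3% of all genes of the table in WT ESC and above 69.4% in WT HE1 cells. In Sp1_deltaDBD cells it measured 9.79 and 4.11 FPKM in ESC, 0.203 and 0.0324 in Flk1+ cells, the lowest value of the sample in both HE1 and both HE2 samples, and 1.22 and 0.779 in progenitors. The ESC samples of the 2 genotypes overlapped, with the mutant lower than the WT sample of the same number in both replicates. The other 4 populations did not overlap. The share of all genes whose samples do not overlap was not counted, so nothing is read from non-overlap here or below. The mutant mean was 66.4% of the WT mean in ESC, 0.914% in Flk1+ cells and 9.05% in progenitors. Mgmt RNA was therefore measured in Sp1 mutant ESC, was near 0 in Flk1+ and HE cells, and stood higher again in the progenitors, which like the HE cells were sorted from blast culture.

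Got1l1 was the weakest of the 3 genes in WT cells after the Flk1+ stage. In WT cells it measured 7.39 and 4.16 FPKM in ESC, 4.97 and 4.85 in Flk1+ cells, 0.333 and 1.44 in HE1, and 1.68 and 2.06 in HE2. Progenitors held 1.78 and 1.27 FPKM. In Sp1_deltaDBD cells it measured 1.70 and 0.640 FPKM in ESC, was listed at 0 in both Flk1+ samples and at the lowest value in both HE1 samples, and measured 0.0930 and 0.254 in HE2. One progenitor sample held 0.231 FPKM and the other was listed at the lowest value. No population overlapped between the 2 genotypes. In HE1 the WT sample with 0.333 FPKM was also the one with 284 FPKM of fibroblast genes. Whether these values are linked was not tested.

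Tmem159 was highest in haemogenic endothelium in WT cells and was listed at the lowest value in all 6 Sp1_deltaDBD samples of the blast culture. In WT cells it measured 2.70 and 1.78 FPKM in ESC, 3.31 and 2.88 in Flk1+ cells, 12.5 and 19.6 in HE1, and 9.31 and 10.5 in HE2. Progenitors held 4.17 and 6.83 FPKM. In Sp1_deltaDBD cells it measured 1.11 and 0.771 FPKM in ESC and 0.439 and 0.647 in Flk1+ cells, before reaching the lowest value in HE1, HE2 and progenitors. No population overlapped. The mutant mean was 41.9% of the WT mean in ESC and 17.5% in Flk1+ cells.

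**Figure D1:**
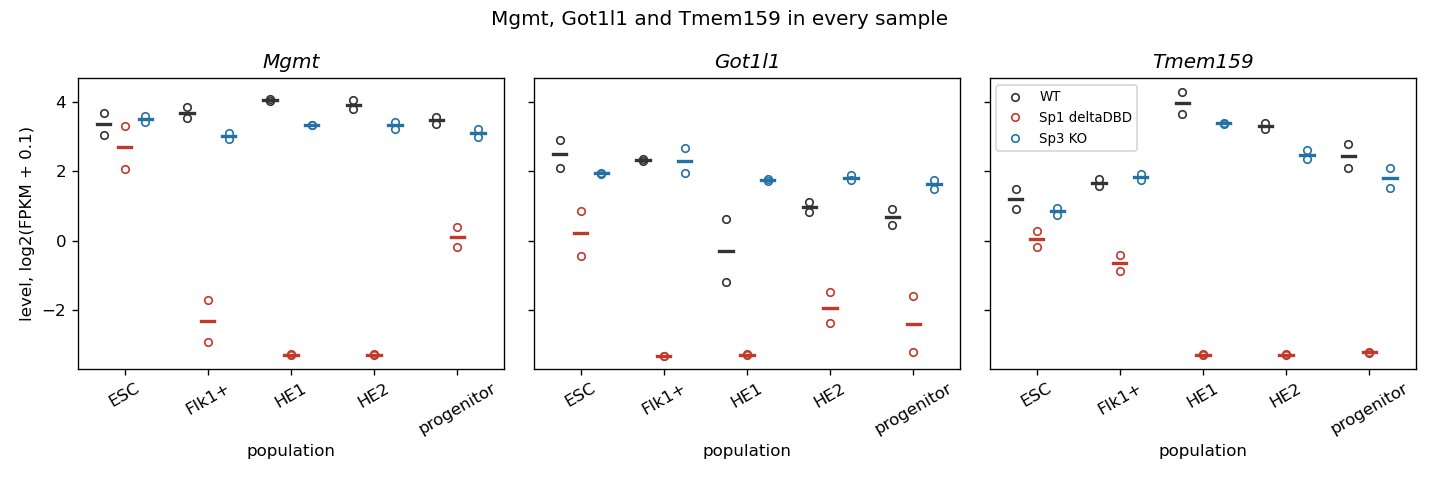
Level of Mgmt, Got1l1 and Tmem159 as log2(FPKM + 0.1) (y axis) in the 5 populations (x axis) of WT, Sp1_deltaDBD and Sp3KO cells. Circles are the 2 samples of a group and the bar is their mean. Mgmt lies at the bottom of the scale in HE1 and HE2 of Sp1_deltaDBD cells, Got1l1 in Flk1+ and HE1, and Tmem159 in HE1, HE2 and progenitors, whereas in Sp1_deltaDBD ESC each sample of each gene is above 0.6 FPKM.

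The word silenced therefore does not describe these genes at every stage. In Sp1_deltaDBD ESC all 3 genes were measured in both samples, from 0.640 FPKM for Got1l1 to 9.79 for Mgmt. Those samples also had the higher fibroblast sums, whose part in these values was not tested. Each was higher in replicate 1 than in replicate 2 of the ESC samples, in WT and in Sp1_deltaDBD cells alike. Flk1+ cells of the mutant retained Tmem159 (0.439 and 0.647 FPKM). ESC markers were low there, in a different order from gene to gene. In the 2 mutant Flk1+ samples, Pou5f1 measured 39.7 and 14.4 FPKM and Nanog 10.5 and 4.77, against 27.4 and 19.6 and 11.2 and 10.7 in WT. Zfp42 (2.28 and 0.773), Sox2 (0.761 and 0.171) and Esrrb (0.773 and 1.42) were lower still, beside mutant ESC means of 426, 100.4 and 88.2 FPKM. Replicate 1, with more of each marker except Esrrb, also had more Mgmt and less Tmem159 than replicate 2, and the part of remaining ESC in these values was not tested.

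A fixed limit was used to see how many other genes showed such values. A gene was called near 0 in a population where both mutant samples were below 0.1 FPKM and the WT mean was at least 3 FPKM. This is a fold limit with no test, and the members were chosen on the same contrast, so nothing is read from their presence. In Sp1_deltaDBD cells 17 genes were near 0 in at least 1 population, 0.148% of the 11474 genes that reached the WT level somewhere. All 3 members were among them, Mgmt in HE1 and HE2, Got1l1 in Flk1+ cells and Tmem159 in HE1, HE2 and progenitors. Mgmt missed the limit in Flk1+ cells through 1 sample at 0.203 FPKM, and Got1l1 missed it in HE1 because its WT mean was 0.888 FPKM. In Sp3KO cells 13 genes, or 0.113%, were near 0 in at least 1 population, and none of them was a member. The counts depended on the limits, with 47 genes in Sp1_deltaDBD and 26 in Sp3KO cells below 0.5 FPKM, and 51 and 53 with a WT mean of at least 1 FPKM. When 1 mutant replicate was left out they were 30 to 43 and 26 to 29.

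In HE1, HE2 and progenitors alike, 2 genes of 8683 (0.023%) were near 0 in Sp1_deltaDBD cells, Tmem159 and Prelid2. The corresponding number in Sp3KO cells was 0 (0%). Prelid2 belongs to a family of lipid transfer proteins of the mitochondrion. In WT cells it measured 19.1 and 9.90 FPKM in ESC and 4.22 and 3.09 in HE2. In Sp1_deltaDBD cells it measured 2.32 and 1.57 FPKM in ESC, 0.160 and 0.681 in Flk1+ cells, and the lowest value in all 6 samples of the blast culture. It differed from the members in Sp3KO cells, where Prelid2 measured 1.51 FPKM in one HE1 sample and the lowest value in the other, whereas each member was at 3.17 FPKM or more in both.

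**Figure D2:**
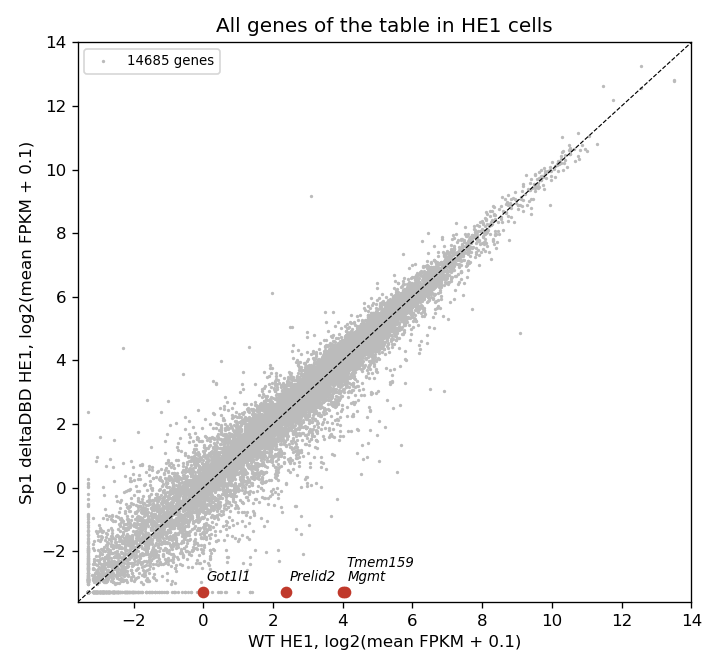
Mean level of the 14685 genes in HE1 cells as log2(mean FPKM + 0.1), WT on the x axis and Sp1_deltaDBD on the y axis, with the dashed line marking equal levels. Mgmt, Tmem159, Prelid2 and Got1l1 lie at the bottom of the plot, at WT means of 16.5, 16.0, 5.08 and 0.888 FPKM.

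The course of the genes through WT differentiation uses the Sp1 mutant samples only in the spread of the fit. The WT samples are themselves part of the difference that selected the genes, so these steps are not independent of the selection. The course was tested with limma on log2(FPKM + 0.1) over all 15 groups, with p-values adjusted over all 14525 tested genes. The methods describe the replicates as biological. HE1, HE2 and progenitors were gates of blast culture and samples with the same number may share one, whereas the fit takes them as independent. Tmem159 rose from Flk1+ cells to HE1 by 2.30 on the log2 scale (SE 0.29, adjusted p = 2.26e-06), in a step at which 53% of genes were called. Got1l1 fell over the same step by 2.62 (SE 0.54, adjusted p = 0.000461). Both calls held without each of the 4 samples in turn.

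The other WT steps were not called for any of the genes with the pseudocount of 0.1 and all samples. The step from ESC to Flk1+ cells called 52.2% of all genes, that from HE1 to HE2 called 21.9% and that from HE2 to progenitors 13.2%. For Tmem159 the difference from HE2 to progenitors was -0.88 (SE 0.29, adjusted p = 0.0527). It passed in a fit without the Sp1_deltaDBD samples (adjusted p = 0.0454), as did the Got1l1 difference from HE1 to HE2 (1.26, adjusted p = 0.0498). The Tmem159 difference also passed with a replicate block (adjusted p = 0.0414) and with a pseudocount of 1 FPKM (-0.78, adjusted p = 0.0169), and that pseudocount called Tmem159 from HE1 to HE2 as well (-0.61, adjusted p = 0.0426). Mgmt differed by no more than 0.44 on the log2 scale at any WT step, and the smallest adjusted p of these was 0.411. By mean level, Mgmt in WT cells ordered as HE1 (16.5 FPKM), HE2 (15.1), Flk1+ (12.9), progenitors (11.0) and ESC (10.5), and the samples of each neighbouring pair overlapped. Tmem159 ordered as HE1 (16.0 FPKM), HE2 (9.91), progenitors (5.5), Flk1+ (3.10) and ESC (2.24), without overlap between neighbours. Got1l1 ordered as ESC (5.77 FPKM), Flk1+ (4.91), HE2 (1.87), progenitors (1.52) and HE1 (0.888), with overlap in each neighbouring pair except Flk1+ and HE2.

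Sp3KO cells retained all 3 genes in every population, with no sample below 1.58 FPKM. The WT samples of this comparison are those of the comparison that selected the genes. Mgmt in Sp3KO cells measured 10.7 and 12.1 FPKM in ESC, 7.47 and 8.45 in Flk1+ cells, 10.1 and 9.94 in HE1, and 9.19 and 10.7 in HE2. Progenitors held 7.79 and 9.14 FPKM. All but the ESC samples were below both WT samples of the same population, a separation whose share over all genes was not counted. The log2 differences from WT were -0.68 in Flk1+ cells, -0.72 in HE1, -0.60 in HE2 and -0.38 in progenitors (SE 0.35 each), and 0.15 in ESC. None passed the test, with adjusted p of 0.225, 0.205, 0.279, 0.577 and 0.874. When the Sp1_deltaDBD samples were left out of the fit, a setting added after the values were seen, the same differences were called by the same test in Flk1+ cells (adjusted p = 0.0221), HE1 (0.0195) and HE2 (0.0380).

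Got1l1 in Sp3KO cells measured 3.78 and 3.71 FPKM in ESC, 3.74 and 6.22 in Flk1+ cells, 3.17 and 3.34 in HE1, and 3.59 and 3.28 in HE2. Progenitors held 3.25 and 2.73 FPKM. It thus stayed near its ESC level where WT cells had less. It was higher than WT in HE1 by 2.04 on the log2 scale (SE 0.54, adjusted p = 0.0206), where 10.9% of all genes were called in either direction. The call was lost without HE1 WT replicate 1 (1.12, adjusted p = 0.301), without HE1 Sp3KO replicate 1 (2.07, adjusted p = 0.0881) and without HE1 Sp3KO replicate 2 (adjusted p = 0.123). HE1 WT replicate 1 is the sample with 284 FPKM of fibroblast genes. In HE2 and progenitors both Sp3KO samples were above both WT samples, with differences of 0.85 and 0.94 (SE 0.54 each, adjusted p = 0.323 and 0.314).

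Tmem159 in Sp3KO cells measured 1.58 and 1.82 FPKM in ESC, 3.67 and 3.27 in Flk1+ cells, 10.5 and 10.3 in HE1, and 4.98 and 6.04 in HE2. Progenitors held 2.74 and 4.18 FPKM. Both HE1 and both HE2 samples were below the WT samples, and the ranges overlapped in ESC, Flk1+ cells and progenitors. The largest difference was in HE2, at -0.84 (SE 0.29), and its adjusted p of 0.0612 did not pass. It passed with a pseudocount of 1 FPKM (-0.75, adjusted p = 0.0230), with a replicate block (adjusted p = 0.0475) and without the Sp1_deltaDBD samples (adjusted p = 0.0492).

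Across all genes Sp3KO and WT cells differed at 11.3% of genes in ESC, 12.6% in Flk1+ cells, 13.8% in HE2 and 8.65% in progenitors, and no member was called there. Whether the Sp3KO difference changed between populations was also tested, 7 times for each member, and none of these passed. The largest was the change of the Got1l1 difference from ESC to HE1, at 2.59 (SE 0.77, adjusted p = 0.0813). The change from Flk1+ cells to HE1, which sets the WT fall of Got1l1 against the Sp3KO course, was 2.06 (SE 0.77, adjusted p = 0.142).

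**Figure D3:**
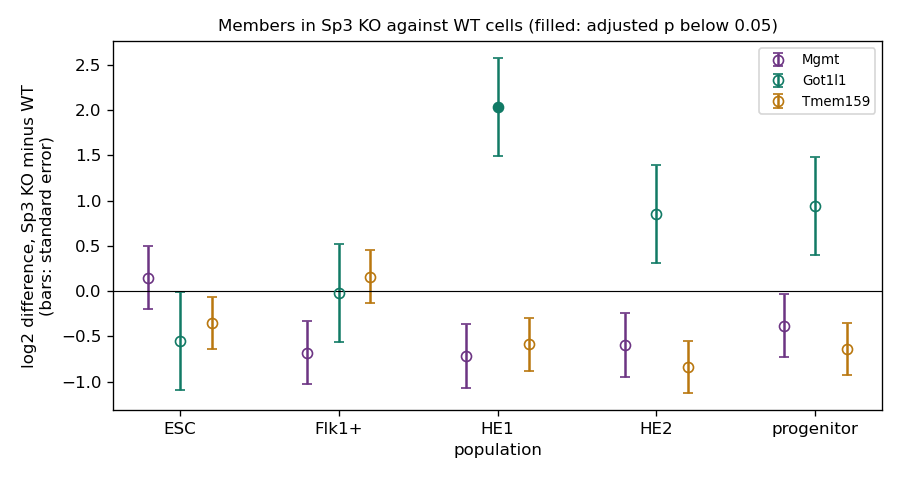
Difference between Sp3KO and WT cells on the log2(FPKM + 0.1) scale (y axis, with standard error) for each member in the 5 populations (x axis). Only the Got1l1 point in HE1, at 2.04, is filled, marking an adjusted p below 0.05, and the Mgmt points lie below 0 in each population except ESC.

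Within Sp3KO cells Tmem159 was called at 3 steps. It rose by 0.99 from ESC to Flk1+ cells (SE 0.29, adjusted p = 0.00847, 48.8% of genes called) and by 1.55 from Flk1+ cells to HE1 (SE 0.29, adjusted p = 0.000246, 44% called). It then fell by 0.91 from HE1 to HE2 (SE 0.29, adjusted p = 0.0432, 14.4% called). The first of these calls was lost without ESC Sp3KO replicate 1 (0.89, adjusted p = 0.0633) or Flk1+ Sp3KO replicate 1 (0.91, adjusted p = 0.0584). The last was lost without any 1 of its 4 samples, with adjusted p from 0.0926 to 0.226. The step from HE2 to progenitors called 8.77% of genes and no member. Got1l1 differed by -0.55 from Flk1+ cells to HE1 in Sp3KO cells (SE 0.54, adjusted p = 0.441), and Mgmt was called at no step, though its difference from ESC to Flk1+ cells (-0.51) passed in the fit without Sp1_deltaDBD samples (adjusted p = 0.0334).

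The genes around each member were examined next, to see whether the low values extended along the chromosome. The 4 genes of the table on each side of each member, 24 in all, were taken in the order of the annotation. In this comparison 11.8% of the 14525 tested genes were lower in Sp1_deltaDBD than in WT cells in at least 1 population, and 12.8% were higher. Of the 24 flanking genes 23 were tested, 2 were lower, 1 was higher and 20 were not called. Leaving out 1 sample at a time moved the lower count between 0 (without ESC WT replicate 1 or ESC Sp1_deltaDBD replicate 2) and 4 (without progenitor Sp1_deltaDBD replicate 1), by over 1.5 times in 13 of 20 settings, and the higher count between 0 and 2. Their median difference lay between -0.23 and 0.04 over the populations, beside 0 to 0.05 for all tested genes.

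Next to Got1l1 lies Adrb3, the beta adrenergic receptor of fat cells, at a distance of 1.948 kb. It measured 4.80 and 5.03 FPKM in WT and 8.61 and 6.20 in Sp1_deltaDBD HE1 cells, in which Got1l1 was listed at the lowest value (difference 0.56, SE 0.54, adjusted p = 0.583). On its other side, Rab11fip1, a vesicle transport gene at 22.8 kb, measured 10.2 and 5.93 FPKM in WT and 6.05 and 3.79 in mutant HE1 cells (-0.69, SE 0.27, adjusted p = 0.11). Eif4ebp1, a brake on translation at 36.5 kb, measured 135 and 130 FPKM in WT and 164 and 116 in mutant HE1 cells. Dusp26, a phosphatase gene at 3866 kb, was low in WT and lower in the mutant means of each population except progenitors, with 0.357 and 0.322 FPKM in WT and 0 and 0.0825 in mutant Flk1+ cells (-1.70, SE 0.85, adjusted p = 0.294). 4933416M07Rik, at 51.2 kb, was listed at the lowest value in both mutant HE2 samples, where WT cells held 0.154 and 0.122 FPKM (adjusted p = 0.0916), but measured 0.207 and 0.316 in mutant HE1 cells. No gene around Got1l1 passed the test.

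Around Mgmt, the nearest gene Ebf3, at 63.4 kb, was below 1 FPKM in every sample and was not tested. Glrx3, a glutaredoxin at 307 kb, measured 63.5 and 60.2 FPKM in WT and 67.1 and 54.7 in mutant HE1 cells, where Mgmt was listed at the lowest value. 9430038I01Rik, at 245 kb, was higher in mutant HE1 cells by 1.25 (SE 0.31, adjusted p = 0.0141), a call that was lost without HE1 WT replicate 1 (adjusted p = 0.155) or either HE1 Sp1_deltaDBD replicate (0.0549 and 0.0738). On the other side the nearest gene of the table was Mki67, a proliferation marker 1178 kb away, at 91.8 and 71.7 FPKM in WT and 107 and 143 in mutant HE1 cells (adjusted p = 0.0623).

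Around Tmem159 the nearest protein-coding genes of the annotation were Zp2 at 5.78 kb, Dnah3 at 7.07 kb and Anks4b at 52.9 kb. They were absent from the table of genes, so no level can be given for them. Lyrm1, at 145 kb, measured 1.91 and 2.32 FPKM in WT and 4.43 and 3.54 in mutant HE1 cells (0.88, SE 0.35, adjusted p = 0.12). Crym, at 65.4 kb, was low in WT HE1 cells too, at 0.491 and 0.329 FPKM. In mutant HE1 cells replicate 1 was listed at the lowest value and replicate 2 measured 0.448. Both mutant samples of HE2 and of progenitors were listed at the lowest value, where no WT sample exceeded 0.260 FPKM. In Flk1+ cells Crym measured 4.22 and 2.84 FPKM in WT and 11.4 and 5.39 in the mutant. The called genes here were lower in ESC, which is not a population with Tmem159 at the lowest value. Eri2, an exonuclease gene, fell by 0.87 (SE 0.25, adjusted p = 0.0459) and Uqcrc2, a subunit of respiratory complex III, fell by 0.46 (SE 0.12, adjusted p = 0.026). The Eri2 call was lost without any 1 of its 4 samples (adjusted p from 0.0781 to 0.251), and that of Uqcrc2 without ESC WT replicate 1 (adjusted p = 0.191) or ESC Sp1_deltaDBD replicate 2 (0.171).

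**Figure D4:**
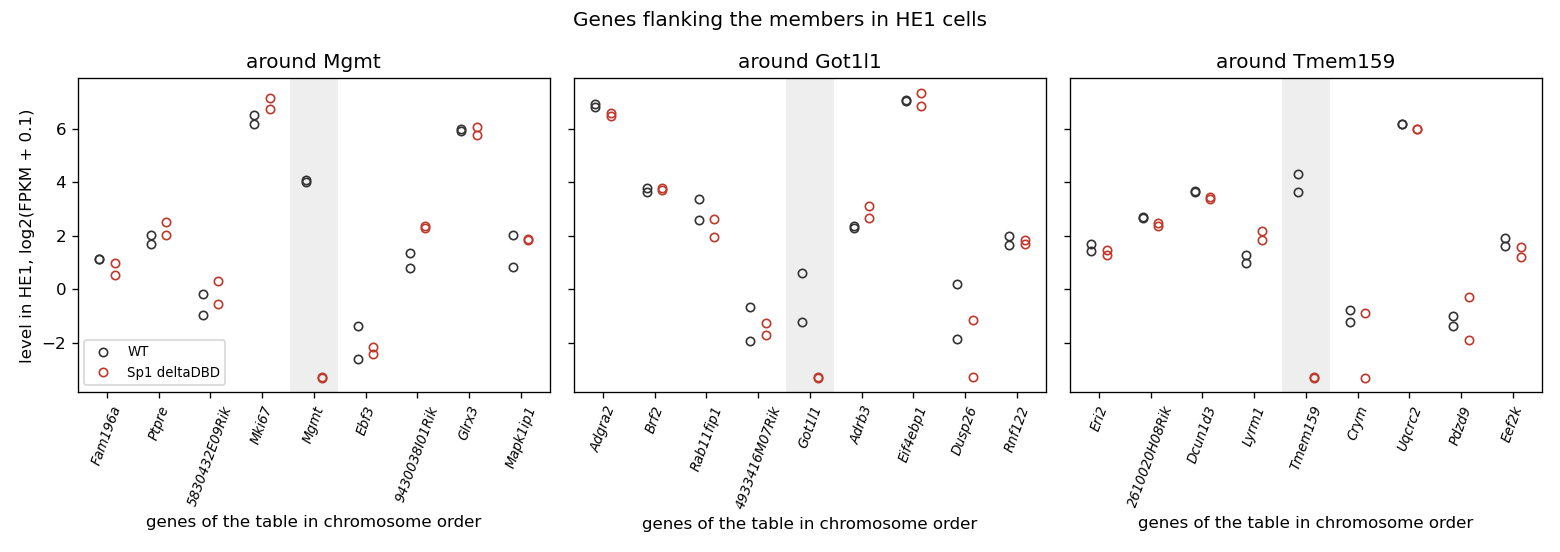
Level in HE1 cells as log2(FPKM + 0.1) (y axis) of each member (grey band) and of the 4 genes of the table on either side, in chromosome order (x axis). Circles are the 2 WT and the 2 Sp1_deltaDBD samples. The mutant values of the 3 members lie at the bottom of the scale, as do mutant replicate 1 of Crym and mutant replicate 2 of Dusp26. Glrx3, Adrb3 and Lyrm1 show mutant values near or above those of WT.

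The pathways of the members were examined through lists of their other genes. For each named gene of a list, samples were left out in turn only for its call with the lowest adjusted p. Its calls in other populations were not rerun. For Mgmt a list of 34 genes under the heading of alkylation damage and mismatch repair was used, all of them tested. The list is broader than its heading, with other DNA glycosylases such as Neil3 and the RNA demethylase Alkbh5. A call in it therefore need not concern the pathway of Mgmt. In Sp1_deltaDBD cells 8 were lower in at least 1 population, 5 were higher and 21 were not called, beside 11.8% lower and 12.8% higher among all genes. With each population fitted alone 4 were lower and 1 was higher. The median difference ran from -0.09 in ESC to 0.15 in HE2. Neil3, a DNA glycosylase, fell in each population except HE1, from 17.6 to 4.93 FPKM in the Flk1+ means (-1.88, SE 0.24, adjusted p = 8.5e-05). Ascc2, of the complex that brings the repair enzyme Alkbh3 to alkylated DNA, fell in each population except ESC, by 1.42 in HE1 (SE 0.14), from a mean of 22.1 to 8.21 FPKM. Msh3, a mismatch repair protein, rose in the same 4 populations, by 1.18 in HE1 (SE 0.13), from 6.71 to 15.4 FPKM.

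Other enzymes of the list showed smaller differences. Mpg, the glycosylase that cuts out alkylated purines, fell by 0.61 in HE2 and by 0.67 in progenitors (SE 0.18 each, adjusted p = 0.0381 and 0.0246). Alkbh3, which removes methyl groups from single-stranded DNA, fell in progenitors, by 0.47 (SE 0.14, adjusted p = 0.0396). The progenitor calls of Mpg and Alkbh3 were lost without any 1 of their 4 samples, with adjusted p from 0.0689 to 0.162. Alkbh5, an RNA demethylase, fell in ESC, HE1 and progenitors, by 0.44 to 0.50, and its HE1 call was lost without replicate 1 of WT (adjusted p = 0.0679) or of Sp1_deltaDBD (0.0945). Alkbh2, which acts on double-stranded DNA, was not called in any population. In HE1 cells, where Mgmt was listed at the lowest value, the mutant mean of Alkbh2 was 3.68 FPKM, beside a WT mean of 2.91. The number of higher repair genes fell from 5 to 2 without HE1 WT replicate 1 and to 3 without HE1 WT replicate 2 or HE1 Sp1_deltaDBD replicate 2.

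For Got1l1, 25 of 33 listed genes of transaminases and the malate-aspartate shuttle were tested, of which 7 were lower, 2 higher and 16 not called, beside 11.8% and 12.8% of all genes. With each population fitted alone 0 were lower and 1 was higher. The median difference ran from -0.18 in HE2 to 0 in ESC. Got1 and Got2, the cytosolic and mitochondrial aspartate aminotransferases, were not called in any population, and in Flk1+ cells their means were 34.1 and 150 FPKM in WT and 35.5 and 156 in the mutant. Bcat2, which acts on branched-chain amino acids, fell in ESC, HE2 and progenitors, by 0.88 in the last (SE 0.17, adjusted p = 0.00255). Gpt2, the mitochondrial alanine aminotransferase, rose by 1.07 in ESC (SE 0.20, adjusted p = 0.00275) and by 0.69 in Flk1+ cells (adjusted p = 0.0497). Slc25a13, the mitochondrial carrier that exchanges aspartate and glutamate, fell in HE1 and progenitors, by 0.78 and 0.75 (SE 0.19 each). The Slc25a13 call in HE1 was lost without HE1 WT replicate 1 (adjusted p = 0.185) or HE1 Sp1_deltaDBD replicate 2 (0.148), and that of Gpt2 in ESC without Sp1_deltaDBD replicate 1 (0.0628).

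For Tmem159, 41 of 51 listed genes of lipid droplet formation and turnover were tested, of which 11 were lower, 5 higher and 25 not called, beside 11.8% and 12.8% of all genes. With a replicate block 11 were lower and 9 higher, and with each population fitted alone 0 were lower and 3 higher. The median difference ran from -0.06 in ESC to 0.07 in Flk1+ cells. Bscl2, which encodes the partner protein seipin, fell in HE1, HE2 and progenitors, the populations in which Tmem159 was listed at the lowest value. The differences were -0.66, -0.67 and -0.76 (SE 0.17 each, adjusted p = 0.0182, 0.0159 and 0.00797), with means of 10.7 and 6.76 FPKM in WT and mutant HE1 cells. In progenitors the call was lost without WT replicate 1 (adjusted p = 0.0641) or Sp1_deltaDBD replicate 2 (0.0692). The HE1 and HE2 calls were not rerun without single samples. Bscl2 was not called in ESC or Flk1+ cells, and the change between populations was not tested. Dgat2, which makes the triglyceride that fills lipid droplets, rose in all 5 populations, from a mean of 0.589 to 3.49 FPKM in HE1 (2.38, SE 0.28, adjusted p = 1.72e-05).

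Other lipid genes changed in some populations. Acsl1, which activates fatty acids, rose in ESC, Flk1+ cells and HE1, by 0.89 to 1.28, and Agpat1, an enzyme of phosphatidic acid synthesis, rose in ESC, Flk1+ cells and HE2, by 0.50 to 0.67. The ESC call of Agpat1 was lost without WT replicate 2 (adjusted p = 0.0848) or Sp1_deltaDBD replicate 1 (0.0949). Lpin1, a phosphatidic acid phosphatase, fell in Flk1+ cells, HE2 and progenitors, by 0.63 to 0.92. Hsd17b11, a droplet-bound dehydrogenase, fell in HE2 and progenitors, by 1.83 and 1.31.

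The genes whose level was most like that of each member were sought by Pearson correlation of log2(mean FPKM + 0.1) over the 15 groups. The groups share cell lines, and 5 of them hold the Sp1_deltaDBD values that selected the members, so the correlations are descriptions. For Mgmt they were Smim20 (r = 0.97), Rbfa, Ntpcr, Tep1 and Kif16b. Smim20, a small mitochondrial protein, had means of 7.19 FPKM in WT and 0.14 in Sp1_deltaDBD HE1 cells, and of 4.77 in Sp1_deltaDBD ESC. For Got1l1 they were Riox2 (r = 0.91), Fndc10, Ntpcr, C330024D21Rik and Smim20, so Ntpcr and Smim20 appear for both genes. For Tmem159 they were Renbp (r = 0.96), Hadh, Eci2, Cers4 and Gstk1. Renbp had means of 47.0 FPKM in WT, 45.5 in Sp3KO and 1.3 in Sp1_deltaDBD HE1 cells, and Hadh and Eci2 are enzymes of fatty acid oxidation.

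The likeness rested on the Sp1_deltaDBD groups to a different degree. Over the 10 groups of WT and Sp3KO cells, r of these genes with Tmem159 ran from 0.66 (Cers4) to 0.93 (Gstk1). With Mgmt it ran from -0.15 (Ntpcr) to 0.46 (Kif16b), and with Got1l1 from 0.08 (Smim20) to 0.53 (Riox2). The members themselves were alike over all 15 groups, at r = 0.88 for Mgmt and Got1l1, 0.87 for Mgmt and Tmem159 and 0.74 for Got1l1 and Tmem159. Over the 10 groups without Sp1_deltaDBD these values were -0.62, 0.51 and -0.76. Over these 10 groups Got1l1 thus tended to be higher where Tmem159 was lower, and r within each genotype was not computed. In Sp3KO cells the Got1l1 mean was highest in Flk1+ cells (4.98 FPKM) and lowest in progenitors (2.99). The Tmem159 means of these Sp3KO populations were nearly equal, at 3.47 and 3.46 FPKM.

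**Figure D5:**
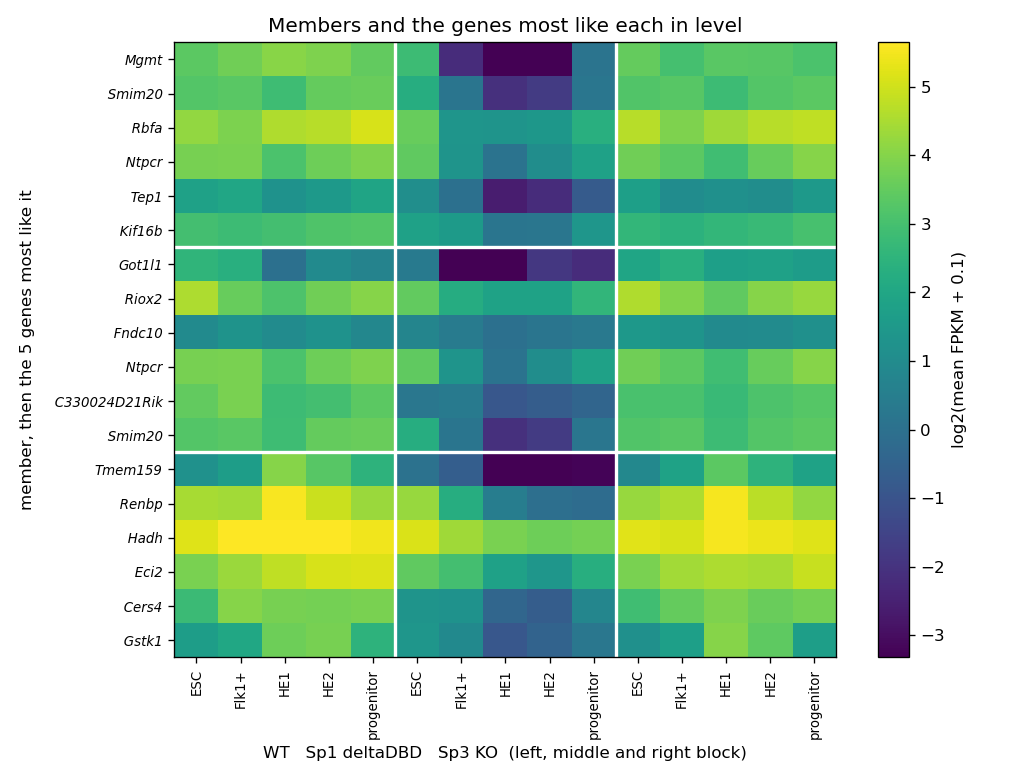
Mean level as log2(FPKM + 0.1) (colour) of each member and the 5 genes most like it (rows) in the 15 groups (columns, with WT at the left, Sp1_deltaDBD in the middle and Sp3KO at the right). Most rows are darkest in the middle block after ESC, and the members reach the lowest colour there, while Hadh and Riox2 remain above 3 FPKM in each group.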

How the data were processed

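Total RNA libraries of 30 samples (15 groups of 2) were sequenced. Per the paper's methods and the submitters' processing notes, reads were aligned to mm10 with HISAT2 2.1.0 and quantified with StringTie 1.3.3. The deposited FPKM values were made by the authors, who dropped genes that never exceeded 1 FPKM and then equalised the samples' distributions by quantile normalisation, so totals carry no depth and no counting interval can be given.

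Levels were analysed as log2(FPKM + 0.1), and genes above 1 FPKM in at least 1 sample after normalisation (14525 of 14685) were tested with limma 3.58.1 (R 4.3.3). The fit had 1 mean per group, an intensity trend, 15 residual and 3.92 prior degrees of freedom, and Benjamini-Hochberg adjustment within each comparison at a threshold of 0.05. It was run on data simulated with independent noise, which cannot show how shared cultures or replicate numbers affect it. The fold changes are differences of mean log2(FPKM + 0.1), which understate changes of low genes.

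The members, gene lists and tests were chosen with earlier results of these data known. Named genes were the members, 4 table genes on each side of each, the 5 most like each by Pearson correlation, genes near 0 in all 3 blast culture populations, fixed relatives of the members (some are not reported here) and, per list, up to 6 genes called in the same direction in most populations (at least 2). The 3 called flanking genes, Sp1, Sp3 and marker genes were also given. Alternatives were a pseudocount of 1, no filter, a replicate block, leaving out each sample, fitting each population alone, other near-0 limits, Spearman correlation and, added later, a fit without Sp1_deltaDBD samples. For single list and flanking genes they were run only on the call with the lowest adjusted p of each gene. All groups share replicate numbers. Deviations of same-numbered WT and Sp1_deltaDBD samples from their group means correlated at 0.255 to 0.481 over 10052 genes in each population. The main fit did not take the numbers as pairs in any comparison. The replicate block, fitted within each population over all genotypes, was an alternative setting only. For WT and Sp3KO the correlations were 0.00318 to 0.194, and the block took the numbers of these samples as pairs too. Sequences are from RefSeq (GRCm38.p6) and positions from GENCODE M21. Tables were made with Python 3.11.15.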

Additional observations from a re-analysis of the deposited data

How the results depend on the processing

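Member tests (WT and Sp3KO cells), list counts and flanking gene counts kept their direction and side of the threshold with no filter on low values. With a pseudocount of 1, Tmem159 was also called in Sp3KO against WT in HE2 (-0.75) and at the WT steps from HE1 to HE2 (-0.61) and HE2 to progenitors (-0.78). Without the Sp1_deltaDBD samples, 7 more results were called: Mgmt in Sp3KO against WT in Flk1+ cells (-0.68), HE1 (-0.72) and HE2 (-0.60), Mgmt at the Sp3KO step from ESC to Flk1+ cells (-0.51), Got1l1 at the WT step from HE1 to HE2 (1.26), and Tmem159 in Sp3KO HE2 (-0.84) and at the WT step from HE2 to progenitors (-0.88). The differences were those of the main fit, so the calls changed through the spread and the adjustment of p. Which samples set the spread was not tested.

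A replicate block called Tmem159 in Sp3KO HE2 (-0.84) and at the WT step from HE2 to progenitors (-0.88). It raised the higher lipid droplet genes from 5 to 9. No other member call in Sp3KO against WT or at a step changed. Each named list or flanking gene was rerun only for its call with the lowest adjusted p, and none of these changed.

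With each population fitted alone, on fewer samples, the call of Got1l1 in Sp3KO HE1 was lost (2.04, adjusted p = 0.147). Lower and higher genes then numbered 4 and 1 for repair, 0 and 1 for transaminases, 3 higher for lipid droplets with 0 lower, and 1 and 0 for flanking genes. Of the 18 named Sp1_deltaDBD calls that were rerun, each the call of a gene with the lowest adjusted p, 15 were lost.

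Leaving out 1 sample at a time gave these ranges. In Sp3KO against WT they were -0.16 to 0.46 for Mgmt in ESC, -0.38 to 0.33 for Got1l1 in Flk1+ cells and 1.12 to 2.95 for Got1l1 in HE1. At WT steps they were -0.27 to 0.00036 for Mgmt from HE1 to HE2, -0.58 to 0.24 for Got1l1 from ESC to Flk1+ cells, 0.35 to 2.18 for Got1l1 from HE1 to HE2 and -1.23 to -0.53 for Tmem159 from HE2 to progenitors. At Sp3KO steps they were -0.12 to 0.094 for Mgmt from HE1 to HE2, -0.00052 to 0.72 for Got1l1 and 0.89 to 1.08 for Tmem159 from ESC to Flk1+ cells, and -1.04 to -0.77 for Tmem159 from HE1 to HE2. Higher repair genes ranged from 2 to 7 and higher transaminase genes from 1 to 3, with 1 without either WT replicate of Flk1+ cells or of HE2. Lower flanking genes ranged from 0 (without ESC WT replicate 1 or ESC Sp1_deltaDBD replicate 2) to 4 (without progenitor Sp1_deltaDBD replicate 1), and moved by over 1.5 times in 13 of 20 settings, and higher ones from 0 (without HE1 WT replicate 1 or HE1 Sp1_deltaDBD replicate 2) to 2.

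Genes near 0 in at least 1 population numbered 47 in Sp1_deltaDBD and 26 in Sp3KO cells below 0.5 FPKM, 51 and 53 with a WT mean of at least 1 FPKM, and 30 to 43 and 26 to 29 when 1 mutant replicate was left out. Of the 5 genes most like each member, Spearman correlation kept 0 for Mgmt, 0 for Got1l1 and 3 for Tmem159. Depth is unknown, so the precision of values near the lowest one is too.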
